A study of Homo sapiens with 6 samples.

Results

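The Grainyhead factors GRHL1, GRHL2 and GRHL3, the OVO-like factors OVOL1 and OVOL2, the Krüppel-like factors KLF4 and KLF5, and the zinc finger proteins ZNF750 and PRDM1 were followed in SCC90 cells after silencing of ΔNp63. The genes were chosen by name, as transcription factors known for their part in the differentiation of stratified epithelia. Earlier results of these data were known when they were chosen. All 9 had a row among the 40488 genes of the deposited table and passed the filter on low counts with 17257 genes in all. SCC90 is an established line from an HPV16-positive carcinoma of the base of the tongue and it is a single line. The siDNp63 group held 3 libraries of cells transfected with an siRNA against ΔNp63, and the siCTRL group held 3 libraries of cells given a scrambled siRNA. The labels give 10 nM for the ΔNp63 siRNA, while the study's methods name a higher concentration, and poly(A) RNA taken 72 h after transfection was sequenced. The comparison asked which genes ΔNp63 controls in these cells. The labels do not say whether each of the 3 replicates of a group was a culture of its own, and the p-values rest on the spread among these libraries alone, which may be technical.

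In stratified epithelia, ΔNp63 is the form of p63 made by basal cells, and it acts upstream of many genes that set the balance between renewal and differentiation. Grainyhead proteins bind DNA as dimers and switch on genes of junctions and of the barrier, and GRHL2 and GRHL3 can act on overlapping sets of targets. OVOL proteins are mostly repressors that keep mesenchymal regulators such as ZEB1 low. KLF4 and KLF5 bind GC-rich and CACCC sequences, KLF5 in proliferating layers and KLF4 in differentiating ones, while ZNF750 works with KLF4 in keratinocytes to start terminal differentiation and PRDM1 (BLIMP1) is a repressor that mouse epidermis uses in its outermost living layers.

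The libraries held between 35716277 and 52598831 expected counts, the fewest in siDNp63 replicate 1. That library also stood apart from the other siDNp63 libraries, with 44.8 on the second principal component of log2 counts (21.3% of the variance) against -29.5 and -32.9, and counts that move when it is left out are also given without it. TP63, the targeted gene, whose row sums all its isoforms, had 15520, 14470 and 15410 normalized counts in siDNp63 cells against 42320, 44200 and 43700 in siCTRL cells, and fell by 1.52 on the log2 scale (SE 0.04, edgeR's quasi-likelihood test, adjusted p = 7.59e-07). Of the markers of squamous epithelium, KRT6A lay between 3565 and 3814 TPM in siDNp63 cells and between 3038 and 3123 TPM in siCTRL cells, while the basal keratins were low, KRT5 at 4.12 to 7.33 TPM in siDNp63 cells and 6.10 to 8.24 TPM in siCTRL cells, and KRT14 under 2 TPM in every library.

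Of the 9 factors, 6 rose in siDNp63 cells (GRHL1, GRHL3, OVOL2, KLF4, KLF5 and PRDM1), ZNF750 fell, and GRHL2 and OVOL1 did not pass the test at an adjusted p of 0.05. PRDM1 rose 5.42-fold, GRHL3 2.92-fold and KLF4 2.34-fold, and these 3 were past a log2 fold change of 1. Among all genes tested, 18.4% rose and 15.2% fell at that threshold (33.6% together), while 2.35% rose past a log2 fold change of 1 and 1.71% fell past -1 (4.06% together). The median log2 fold change was 0.67 over the 9 factors and -0.02 over all genes tested, and the median absolute change over all genes was 0.21. In 7 of the 9 factors every siDNp63 library lay on the same side of all siCTRL libraries, above them for 6 and below for ZNF750. Among all genes tested that was so for 49.4%, 24.7% above and 24.7% below. In bulk RNA, a different share of cells with a gene on and a different amount of RNA per cell cannot be told apart. When counts were scaled by library size alone, the median of all genes was -0.11, 2330 genes rose and 4117 fell, against 3177 and 2626 with the scaling used here, and the calls of the 9 factors kept their direction.

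**Figure D1:**
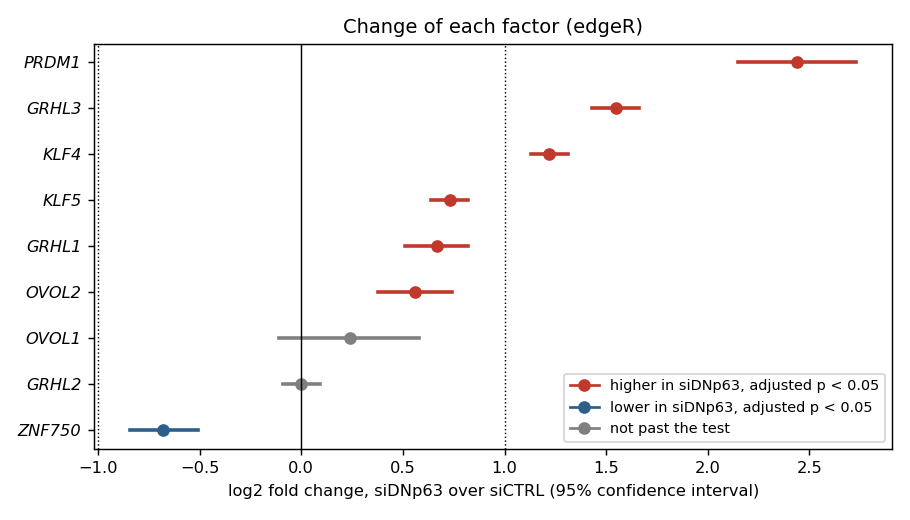
The log2 fold change of each factor, siDNp63 over siCTRL, is drawn as a point with its 95% confidence interval, derived from edgeR's test. Dotted lines stand at a change of 1 in either direction. PRDM1, GRHL3 and KLF4 lie with their whole intervals above 1, the intervals of OVOL1 and GRHL2 cross 0, and ZNF750 is the one factor with its interval below 0.

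The promoters of the 3 factors that rose past a log2 fold change of 1 are shown with matches to a KLF motif marked, since KLF4 and KLF5 were themselves among the factors. Each is 300 bases from RefSeq (GRCh38.p14), running from 250 bases before the annotated start to 50 after it, written on the strand of the gene, and the capitals mark matches on either strand to the KLF motif CCNCNCCC. The KLF4 promoter is at chr9:107489720-107490019 on the minus strand. The GRHL3 promoter shown is the upstream one of 2 in the RefSeq promoter table, at chr1:24319107-24319406 on the plus strand. The PRDM1 promoter shown is also the upstream one of 2 in that table, at chr6:106086086-106086385 on the plus strand.
KLF4: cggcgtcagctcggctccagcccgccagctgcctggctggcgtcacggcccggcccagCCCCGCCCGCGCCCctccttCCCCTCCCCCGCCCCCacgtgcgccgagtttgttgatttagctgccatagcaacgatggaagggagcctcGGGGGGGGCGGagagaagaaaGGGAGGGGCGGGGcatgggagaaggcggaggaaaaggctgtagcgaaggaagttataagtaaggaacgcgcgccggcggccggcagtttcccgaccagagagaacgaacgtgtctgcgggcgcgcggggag
GRHL3: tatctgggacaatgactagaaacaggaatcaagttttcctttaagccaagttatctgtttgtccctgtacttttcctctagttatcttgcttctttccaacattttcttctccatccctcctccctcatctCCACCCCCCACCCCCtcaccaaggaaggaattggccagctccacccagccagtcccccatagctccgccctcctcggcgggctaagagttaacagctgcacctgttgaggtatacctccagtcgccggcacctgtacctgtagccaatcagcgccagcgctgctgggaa
PRDM1: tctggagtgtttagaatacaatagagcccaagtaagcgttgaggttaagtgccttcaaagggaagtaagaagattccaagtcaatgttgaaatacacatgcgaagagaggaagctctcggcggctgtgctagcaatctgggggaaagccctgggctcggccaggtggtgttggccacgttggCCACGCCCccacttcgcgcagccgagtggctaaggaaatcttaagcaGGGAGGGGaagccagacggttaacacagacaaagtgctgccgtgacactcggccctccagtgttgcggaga

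The KLF4 promoter held 10 matches to the motif, several of which overlap, and it was GC-rich (69.0% G and C). The GRHL3 promoter shown held 3 overlapping matches in a CACCC-like run at 53% G and C, and the PRDM1 promoter shown held 2 at 54.3%. The GRHL3 promoter not shown held 0 matches and the PRDM1 promoter not shown held 3. Promoters were matched for 5 of the 9 factors, GRHL1, GRHL3, KLF4, KLF5 and PRDM1, with 8 promoters in all, and 6 of the 8 held the motif with 26 matches together. Of 35116 promoters of the same length in the table, 56.2% held it. The Grainyhead motif AACNNGTT and the OVOL motif CCGTTA occurred in 0 of the 8, against 3.52% and 3.07% of all promoters. The core of the p53-family element (CWWG, 6 bases and CWWG, with W for A or T) also occurred in 0 of the 8, against 4.79%. A match here is a run of letters in a short window, and binding was not measured.

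GRHL3, the Grainyhead factor needed in mice for the epidermal barrier and for wound closure, had the largest fold change of its family. It had 4335, 4821 and 4615 normalized counts in siDNp63 replicates 1, 2 and 3, against 1589, 1523 and 1609 in siCTRL replicates 1, 2 and 3. The libraries of each group lay close together and the groups were far apart. The log2 fold change was 1.55 (SE 0.05, 95% confidence interval 1.43 to 1.66, edgeR's quasi-likelihood test, Benjamini-Hochberg adjusted p = 1.42e-06). GRHL3 lies at chr1:24199558-24364482 on the plus strand (ENSG00000158055, GRCh38, GENCODE 44). STPG1 overlaps it on the opposite strand without sharing exonic bases, and STPG1 moved the other way, with 989, 1051 and 1004 normalized counts in siDNp63 cells and 1660, 1727 and 1694 in siCTRL cells (log2 fold change -0.74, SE 0.05, edgeR adjusted p = 2.37e-05). GRHL3 transcripts shared 0 of their 31-base words with transcripts of any other annotated gene.

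GRHL1, which in mice controls the desmosomal cadherin gene Dsg1 and hair anchorage, rose 1.59-fold. It had 2643, 2292 and 2288 normalized counts in siDNp63 cells and 1465, 1528 and 1559 in siCTRL cells, with siDNp63 replicate 1 above its other replicates and no overlap between the groups. Its log2 fold change was 0.67 (SE 0.07, edgeR adjusted p = 0.000191). GRHL1 lies at chr2:9951693-10002277 on the plus strand (ENSG00000134317), and 4.11% of its 31-base words also occur in other genes of the table. With annotated genes outside the table counted as well, 4137 genes share at least 1 word with it.

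GRHL2, a keeper of epithelial identity that drives CDH1 and other junction genes, did not pass the test. It had 8365, 8069 and 8019 normalized counts in siDNp63 cells against 7980, 8390 and 8131 in siCTRL cells, and the 2 sets of libraries lay within one another's range. Its log2 fold change was -0.00 with a 95% confidence interval of -0.09 to 0.09 (edgeR adjusted p = 0.961). In TPM its siDNp63 libraries (84.84, 74.41 and 79.80) all lay below its siCTRL libraries (88.27, 85.48 and 84.88), the nearest by little. On log2(TPM + 1) its change was -0.11 and not called (limma, adjusted p = 0.194). GRHL2 (ENSG00000083307) lies on chromosome 8, plus strand.

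Per length, the make-up of the Grainyhead family differed between the groups. Levels of different genes were compared as TPM, the deposited abundance per transcript length. GRHL3 made up 56.2%, 56.6% and 54.0% of the summed Grainyhead TPM in siDNp63 replicates 1, 2 and 3, against 32.9%, 28.3% and 28.1% in siCTRL replicates 1, 2 and 3. GRHL2 made up 31.2% ± 1.06 in siDNp63 cells and 55.7% ± 0.993 in siCTRL cells (SD, n = 3 each), so that GRHL3 was the most abundant Grainyhead transcript in every siDNp63 library and GRHL2 in every siCTRL library. The share of GRHL1 overlapped between the groups, with 13.2% ± 0.387 in siDNp63 cells and 14.5% ± 2.48 in siCTRL cells. The summed Grainyhead TPM was 276.9, 244.3 and 246.5 in siDNp63 cells and 159.8, 155.5 and 149.4 in siCTRL cells. For the shares of GRHL3 and GRHL2 the exact permutation test gave p = 0.1 (two-sided), the smallest that 3 against 3 libraries allow. Adjusted over the 6 shares compared, within families or between PRDM1 and ZNF750, this p was 0.15.

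**Figure D2:**
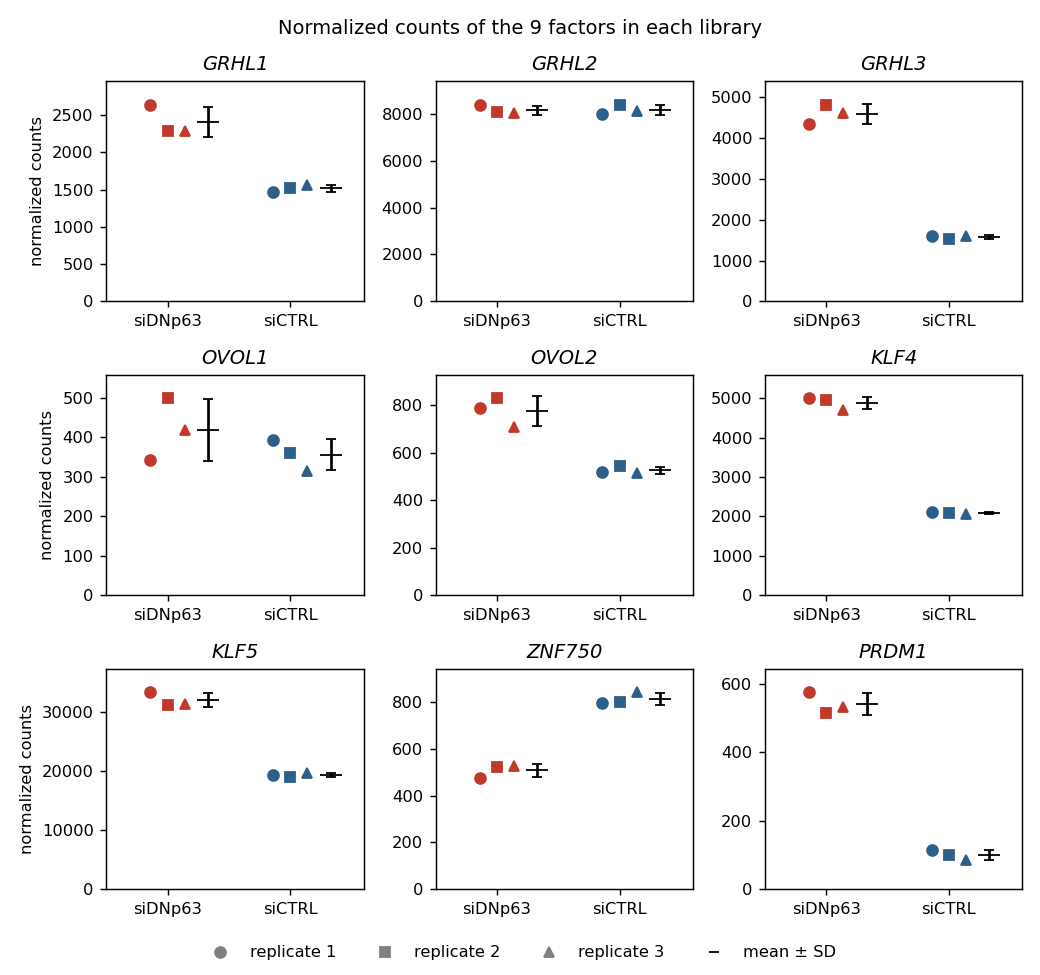
Normalized counts of each factor are drawn by library, with a panel for each gene, siDNp63 libraries on the left and siCTRL libraries on the right, a marker shape for each replicate number and the mean ± SD beside the points. GRHL2 and OVOL1 are the 2 panels in which the groups overlap, and ZNF750 is the panel in which the siDNp63 libraries lie below the siCTRL libraries.

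OVOL2, the repressor of ZEB1 that holds back a switch towards mesenchymal genes, rose. It had 790, 829 and 709 normalized counts in siDNp63 cells and 521, 544 and 516 in siCTRL cells, with no overlap. This was a log2 fold change of 0.56 (SE 0.08, edgeR adjusted p = 0.00116), a 1.47-fold difference. OVOL2 lies at chr20:17956979-18059188 on the minus strand (ENSG00000125850). It overlaps SNX5 in exons on the same strand, shares 1.38% of its 31-base words with genes of the table, all of which occur in SNX5, and SNX5 had a log2 fold change of -0.08 (edgeR adjusted p = 0.123).

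OVOL1, which acts where keratinocytes stop dividing, had the widest spread of the 9 among siDNp63 libraries. It had 342, 498 and 418 normalized counts in siDNp63 cells against 393, 360 and 315 in siCTRL cells, and siDNp63 replicate 1 fell within the siCTRL range while the other siDNp63 libraries lay above it. Its log2 fold change was 0.24 (SE 0.15, 95% confidence interval -0.11 to 0.58) and did not pass edgeR's quasi-likelihood test (adjusted p = 0.263). Without siDNp63 replicate 1, it was 0.36 with an edgeR adjusted p of 0.049, past the threshold, and over the other alternatives the adjusted p stayed above it. OVOL1 lies at chr11:65787063-65797214 on the plus strand (ENSG00000172818), and 26.2% of its 31-base words also belong to an opposite-strand long non-coding RNA, ENSG00000255404, which was not analysed here. The kit marked strand, but kallisto was run with its default options, which do not use it, so reads that lie within the shared words cannot be told apart by strand. OVOL2 made up 85.6% ± 2.19 of the summed OVOL1 and OVOL2 TPM in siDNp63 cells and 82.9% ± 1.63 in siCTRL cells (SD, n = 3 each), shares whose ranges overlapped.

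The mesenchymal genes beside the OVOL factors moved in both directions. Of 8 such genes, all tested, VIM and CDH2 rose, SNAI2 fell and 5 did not pass the test, with a median log2 fold change of 0.18. Among all genes tested, 18.4% rose and 15.2% fell, so counts this small do not set the list apart. Without siDNp63 replicate 1, 2 genes of the list rose and 2 fell. SNAI2, a repressor of CDH1 in other settings, had 893, 838 and 789 normalized counts in siDNp63 cells and 2054, 2018 and 2022 in siCTRL cells (log2 fold change -1.28, edgeR adjusted p = 4.4e-06). For CDH2, the neural cadherin, the log2 fold change was 0.92, and for the intermediate filament gene VIM it was 0.68. ZEB1, the target of OVOL2 in other epithelia, had few counts in every library, with 41.0, 18.8 and 24.8 normalized counts in siDNp63 cells and 28.6, 42.6 and 21.4 in siCTRL cells (log2 fold change -0.16, edgeR adjusted p = 0.778). ZEB1 was chosen for naming after its values were seen.

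KLF4, which in mice is needed to form the skin barrier, had the smallest p of the 9 factors. It had 4992, 4946 and 4696 normalized counts in siDNp63 cells and 2122, 2077 and 2065 in siCTRL cells. Both groups were tight and lay far from each other. The log2 fold change was 1.22 (SE 0.04, 95% confidence interval 1.13 to 1.31, edgeR adjusted p = 1.42e-06). KLF4 lies at chr9:107484852-107490482 on the minus strand (ENSG00000136826), and 8.08% of its 31-base words also belong to an opposite-strand transcript, ENSG00000289987, which was not analysed here.

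KLF5, the Krüppel-like factor of proliferating epithelial cells, had the highest level of the 9 factors in both groups. It had 33280, 31150 and 31290 normalized counts in siDNp63 cells and 19350, 18900 and 19590 in siCTRL cells, with no overlap. This corresponds to a log2 fold change of 0.73 (SE 0.04, edgeR adjusted p = 9.97e-06), a 1.65-fold difference. KLF5 lies at chr13:73054976-73077541 on the plus strand (ENSG00000102554) and shares 0 of its 31-base words with other genes. KLF4 made up 19.0% ± 0.457 of the summed KLF4 and KLF5 TPM in siDNp63 cells and 14.2% ± 0.291 in siCTRL cells (SD, n = 3 each), without overlap (exact permutation test, two-sided, p = 0.1, 0.15 adjusted over 6 shares).

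ZNF750 was the one factor that fell. This zinc finger protein is a direct p63 target in human keratinocytes and represses progenitor genes there together with KDM1A, RCOR1 and CTBP proteins. It had 476, 522 and 527 normalized counts in siDNp63 cells and 797, 802 and 843 in siCTRL cells, and the highest siDNp63 library was well below the lowest siCTRL library. On the log2 scale the difference was -0.68 (SE 0.07, 95% confidence interval -0.84 to -0.51, edgeR adjusted p = 0.000253). ZNF750 lies at chr17:82829434-82840022 on the minus strand (ENSG00000141579) within TBCD, which runs on the opposite strand, overlaps it in exons and shares 6.08% of its 31-base words. TBCD itself had a log2 fold change of -0.01 (edgeR adjusted p = 0.882).

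PRDM1 had the largest fold change of the 9 and the lowest level in siCTRL cells. It had 576, 515 and 533 normalized counts in siDNp63 cells and 115, 98.8 and 84.5 in siCTRL cells, and before scaling the rounded counts were 450, 601 and 559 in siDNp63 cells and 132, 95 and 75 in siCTRL cells. The lowest siDNp63 library was far above the highest siCTRL library. On the log2 scale the difference was 2.44 (SE 0.13, 95% confidence interval 2.15 to 2.73, edgeR adjusted p = 8.98e-06). PRDM1 lies at chr6:105993463-106109939 on the plus strand (ENSG00000057657) and shares 0 of its 31-base words with other genes. ATG5 overlaps it on the opposite strand without sharing exonic bases and had a log2 fold change of 0.23 (edgeR adjusted p = 0.0189).

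PRDM1 and ZNF750 moved in opposite directions. PRDM1 made up 51.9%, 47.4% and 51.3% of their summed TPM in siDNp63 replicates 1, 2 and 3, and 16.8%, 6.97% and 8.49% in siCTRL replicates 1, 2 and 3. The transcripts of both were about equally abundant in siDNp63 cells, and ZNF750 was the more abundant in every siCTRL library (exact permutation test, two-sided, p = 0.1, 0.15 adjusted over 6 shares).

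The order of the factors by level also differed between the groups. In siDNp63 cells KLF5 averaged 382 TPM, GRHL3 142, KLF4 89.6, GRHL2 79.7, GRHL1 33.9, OVOL2 30.1, PRDM1 5.74, ZNF750 5.68 and OVOL1 5.09 TPM. In siCTRL cells the averages were 243 TPM for KLF5, 86.2 for GRHL2, 46.2 for GRHL3, 40.3 for KLF4, 22.5 for GRHL1, 21.8 for OVOL2, 9.58 for ZNF750, 4.52 for OVOL1 and 1.17 for PRDM1. Neighbours whose libraries overlapped were GRHL1 and OVOL2 in both groups and, in siDNp63 cells, PRDM1, ZNF750 and OVOL1. GRHL3 stood at the 92.9th percentile of TPM among all genes tested in siDNp63 cells and at the 77.1st in siCTRL cells, and PRDM1 at the 37.6th in siDNp63 cells and the 18.7th in siCTRL cells. The 9 factors together summed to 812.9, 748.4 and 761.6 TPM in siDNp63 cells and to 484.8, 471.1 and 470.5 TPM in siCTRL cells.

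**Figure D3:**
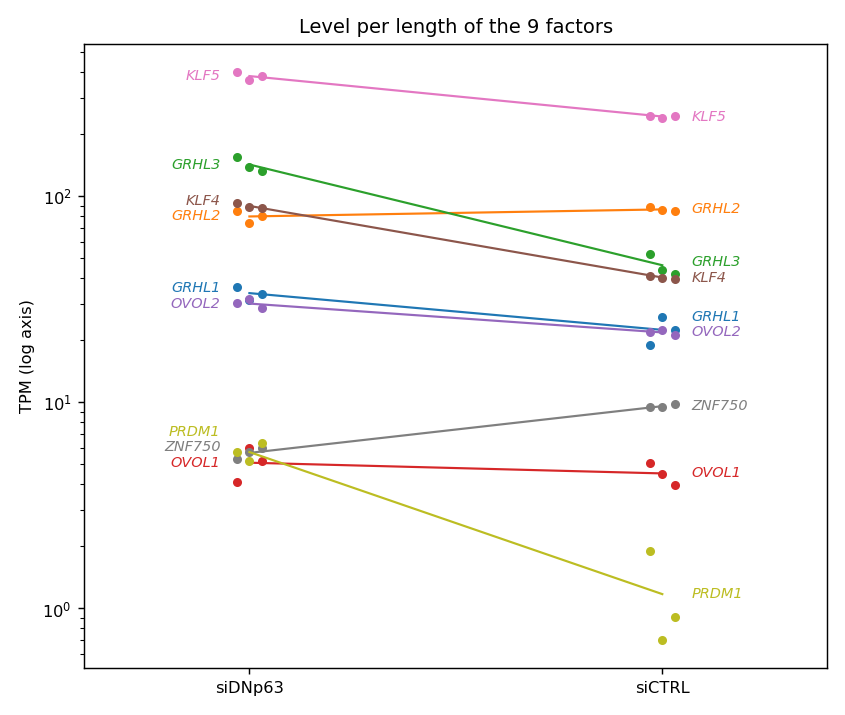
TPM of each factor is drawn on a log axis by library, siDNp63 on the left and siCTRL on the right, with lines between the group means. The lines of GRHL3 and KLF4 cross that of GRHL2, and the line of PRDM1 crosses those of ZNF750 and OVOL1, while KLF5 is the top line throughout.

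A gene's count and TPM can part when the mix of its transcripts changes, so the average effective length behind each value was read from the ratio of expected count to TPM. KLF4, KLF5 and ZNF750 had nearly constant lengths, at 1799, 2760 and 2959 bases on average in siDNp63 cells and 1805, 2761 and 2959 in siCTRL cells. GRHL3 averaged 1073 ± 134 bases in siDNp63 cells and 1196 ± 133 in siCTRL cells (SD, n = 3 each), with ranges that overlapped, although its annotated transcripts run up to 2834 bases. PRDM1 varied most, with 3323, 3231 and 2840 bases in siDNp63 cells and 2112, 4868 and 3197 in siCTRL cells. Its annotated transcripts run from 580 to 5148 bases. On the log2(TPM + 1) scale, which understates changes of low genes, its change was 1.67 (limma, adjusted p = 0.00205). The exact permutation test gave p between 0.4 and 1.0 for the 9 factors, none under 0.75 when adjusted over the 9, and no factor had lengths that separated the groups, against 10.9% of 17097 genes with a length in every library.

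**Figure D4:**
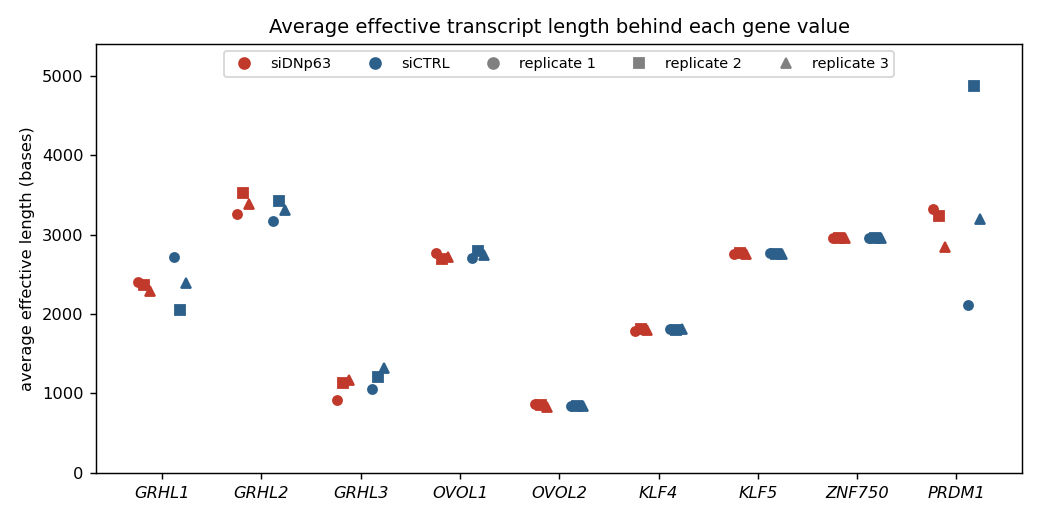
The average effective transcript length in bases is drawn for each factor and library, siDNp63 left of siCTRL, with a marker shape for each replicate number. The groups overlap for every factor, GRHL3 lies between 920 and 1325 bases, and the siCTRL libraries of PRDM1 are spread from 2112 to 4868 bases.

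Relatives of the factors were looked at as a background to them. Of 34 other genes of the Grainyhead-like, OVOL, KLF and PRDM families, 24 were tested and 8 rose, where 18.4% of all genes tested did. The median log2 fold change of these relatives was 0.14, and without siDNp63 replicate 1, 9 of them rose. KLF3, a repressor that binds the same sequences as other KLF proteins, had the smallest p of them, with 10970, 9724 and 10050 normalized counts in siDNp63 cells and 5255, 5049 and 5401 in siCTRL cells (log2 fold change 0.97, edgeR adjusted p = 1.13e-05). PRDM11, KLF6 and PRDM2 had log2 fold changes of 0.55, 0.52 and 0.46. Of 12 proteins that work with the factors or control their stability, 5 rose and 2 fell, against 18.4% and 15.2% of all genes tested. They included the acetyltransferase EP300 (0.47), the corepressors RCOR1 (0.44) and CTBP2 (0.43), and FBXW7 (-0.45), the ubiquitin ligase subunit that targets KLF5. The other partners of ZNF750 in the list, KDM1A (0.11, edgeR adjusted p = 0.078) and CTBP1 (-0.04, edgeR adjusted p = 0.818), did not pass the test. The number of cofactors that fell was 1 when siDNp63 replicate 2 or any of the siCTRL replicates was left out. The number that rose depended on the processing. It was 4 without siDNp63 replicate 1 and 6 with DESeq2. It was 3 with library size alone, with average effective lengths as an offset, and with limma on log2(TPM + 1) and log2(TPM + 0.1).

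Genes known as direct targets of Grainyhead factors in mice or human cells were taken as a list of 20. Of these, 19 were tested, 13 rose, 2 fell (CDH3 and MARVELD3) and 4 did not pass, with a median log2 fold change of 0.52. Without siDNp63 replicate 1, 15 of the list rose and 2 fell. The shares over all genes tested, with every library in, were 18.4% rising and 15.2% falling. PPL, the envelope protein periplakin, had 2434, 2775 and 2793 normalized counts in siDNp63 cells and 943, 952 and 927 in siCTRL cells (log2 fold change 1.50, edgeR adjusted p = 3.8e-06). For CDH1, the epithelial cadherin, the log2 fold change was 0.62, for MAL2, which encodes an apical transport protein, 0.74, and for the receptor gene ERBB3 0.52. The list was put together with results of these libraries known, and CDH3, the cadherin of basal cells, had a log2 fold change of -0.67.

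KLF4, ZNF750 and GRHL3 switch on some of the late differentiation genes of human or mouse epidermis. Late differentiation genes, here of epidermis and of mucosa, were partly expressed. Of 36 such genes, 23 passed the filter on low counts and 2 had a count of 0 in every library. Of the 23, 8 rose and 15 were not called, with a median log2 fold change of 0.38, while 18.4% of all genes tested rose. KRT10 is among the 8, but its log2 fold change was -0.07 on log2(TPM + 1). In 9 of the 23 every siDNp63 library lay above all siCTRL libraries. In 2, ALOX12B (-0.60) and KLK11 (-0.52), neither called, every one lay below. Among all genes tested, 24.7% lay above and 24.7% below. Without siDNp63 replicate 1, 12 genes of the list rose. KRT4, a keratin of the layers above the basal one in oral mucosa, had 9861, 10520 and 11330 normalized counts in siDNp63 cells and 2260, 2659 and 2704 in siCTRL cells (log2 fold change 2.06, edgeR adjusted p = 3.21e-06). SCEL, which encodes the envelope precursor sciellin, had a log2 fold change of 1.50, KRT1, a keratin of spinous cells, 1.30, and SPRR3, a small proline-rich envelope protein of mucosa, 0.90.

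Other transcription factors of epithelia moved in both directions. Of 27, 26 were tested, 5 rose and 9 fell, with 4 rising and 4 falling past a log2 fold change of 1 and a median of -0.18. Among all genes tested, 18.4% rose and 15.2% fell, and 2.35% and 1.71% did so past that fold. Without siDNp63 replicate 1, 6 of the list rose and 10 fell. TP63, which the siRNA targets, is counted among those that fell, also past the fold. EHF, an ETS factor of differentiating epithelia, had 5719, 5030 and 5296 normalized counts in siDNp63 cells and 427, 446 and 482 in siCTRL cells (log2 fold change 3.57, edgeR adjusted p = 1.57e-07). ELF3, another ETS factor, had a log2 fold change of 1.26 and SOX9 one of 1.89.

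**Figure D5:**
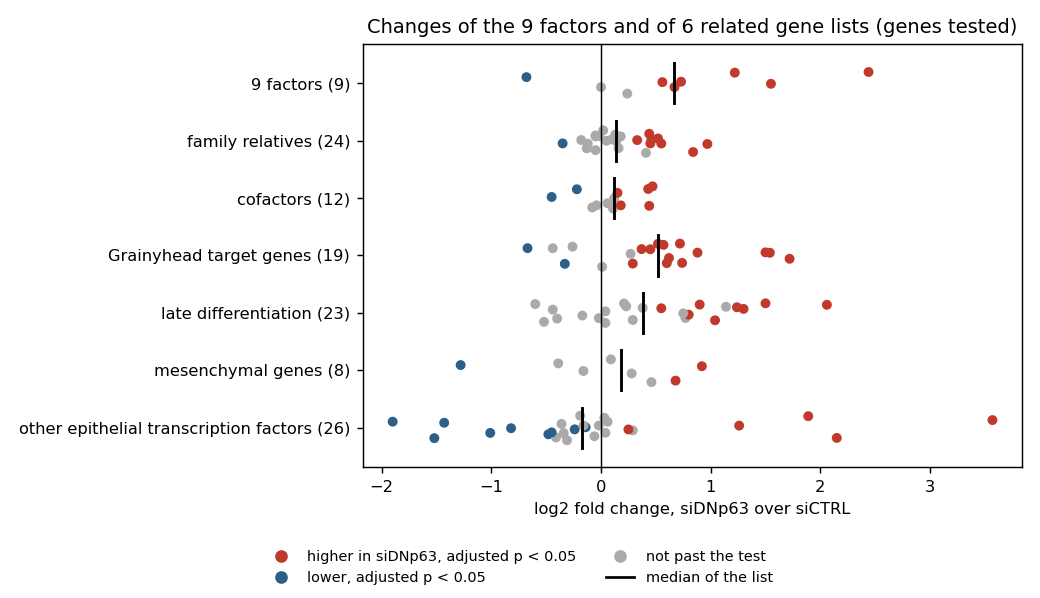
Each point is the log2 fold change, siDNp63 over siCTRL, of a tested gene of the 9 factors or of a related list, coloured by its edgeR call, with a bar at the median of the list. The median bar stands at 0.67 for the 9 factors, 0.52 for Grainyhead target genes, 0.38 for late differentiation genes, 0.18 for mesenchymal genes, 0.14 for family relatives, 0.12 for cofactors and -0.18 for other epithelial transcription factors.

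Markers of other cell types were checked in the same libraries. The summed TPM of 8 leukocyte markers was 11.6 to 12.7 in siDNp63 cells and 14.6 to 16.4 in siCTRL cells, with MS4A1 at 0 and PTPRC at no more than 12.8 normalized counts in any library. Within this sum, CD68 averaged 8.14 TPM in siDNp63 cells and 8.32 TPM in siCTRL cells. Leukocytes also express PRDM1, and whether they had a part in its change was not tested. The summed TPM of 7 fibroblast markers was 5.83 to 9.11 in siDNp63 cells and 8.72 to 10.8 in siCTRL cells, with PDGFRB at 0. Of 6 endothelial markers, all 3 that were tested rose (KDR 2.36, PECAM1 2.39 and VWF 0.88 in log2 fold change), and the summed TPM of the list was 11.2 to 13.8 in siDNp63 cells and 2.62 to 3.09 in siCTRL cells. CDH5, the defining endothelial cadherin, had at most 6.24 normalized counts in any library. Of the 9 squamous markers, 6 rose, against 18.4% of all genes tested. The summed TPM of the 9 was 5812 to 5910 in siDNp63 cells and 4774 to 4825 in siCTRL cells. The part of these markers in the changes of the 9 factors was not tested.

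The genes whose levels followed KLF4 most closely over the 6 libraries were ABHD17C, EXT2 and KIFAP3, with Pearson's r of log2 CPM (counts scaled to library size) of 0.9998, 0.9998 and 0.9997. The 6 libraries are 2 groups, so such values mainly record a difference between groups with little spread within them, and 480 of the 12702 genes compared had r of at least 0.99. KIFAP3, which encodes a subunit of the kinesin-II motor, had 5251, 5103 and 4971 normalized counts in siDNp63 cells and 1614, 1592 and 1552 in siCTRL cells. The log2 fold changes were 0.29 for ABHD17C, 0.4 for EXT2 and 1.69 for KIFAP3, against 1.22 for KLF4. A high r thus did not mean a change of like size.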

How the data were processed

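RNA of siDNp63 and siCTRL SCC90 cells (n = 3 libraries each) was sequenced from poly(A)-selected, strand-marked libraries. Per the submitters' processing notes, bcl2fastq 2.17.1.14, kallisto 0.46.2 and the build hg38 were used, and no annotation release is given in the sources used here. The expected counts deposited are the authors' kallisto estimates per gene, not scaled between libraries. The deposited TPM values are length-normalized by the authors and sum to 1000000 in each library. All 12 value columns entered the work.

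For the tests the estimated counts were rounded to whole numbers. Genes were filtered with filterByExpr (minimum count 10), scaled by TMM and tested with edgeR 4.0.16 (glmQLFit and glmQLFTest, group only), and p-values were adjusted over 17257 genes by the Benjamini-Hochberg method. A gene was called at an adjusted p under 0.05, and a log2 fold change over 1 was counted separately. Normalized counts are TMM-scaled, so with library totals of 35716277 to 52598831 a gene of about 100 counts carries a sizeable counting error. Average effective lengths are expected count over TPM, put on a scale of bases with genes of a single annotated transcript. Loci, overlaps and shared 31-base words (both strands) are from GENCODE 44 on GRCh38, and promoters and their motif matches from RefSeq, GRCh38.p14. All 9 factors are named; of each other list, up to 4 called genes with the smallest p, plus TP63, genes overlapping a factor and the 3 genes most like KLF4 among those with a mean of at least 100 normalized counts. Markers of other cell types are also named. ZEB1, CDH3, MARVELD3, KDM1A, CTBP1, WWP1, KRT10, ALOX12B and KLK11 lie outside this rule and were named after their values were seen. The factors and the lists were chosen with earlier results of these data known. The alternatives were DESeq2 1.42.0, limma-voom and limma 3.58.1 on log2(TPM + 1) and log2(TPM + 0.1), other scalings and filters, an effective length offset, an adjusted p under 0.005, a replicate block, and leaving out each library. Some items are not reported here.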

Additional observations from a re-analysis of the deposited data

How the results depend on the processing

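Over 17 alternatives, each of the 9 factors kept its direction and its side of the threshold, except OVOL1 without siDNp63 replicate 1 (0.36 on the log2 scale, edgeR adjusted p = 0.049) and the sign of GRHL2, whose log2 fold change lay between -0.12 and 0.01 and was never called. The range was 2.34 to 2.55 for PRDM1 in edgeR leaving out each library and down to 1.67 on log2(TPM + 1), 1.46 to 1.68 for GRHL3, 1.13 to 1.25 for KLF4, 0.64 to 0.75 for KLF5, 0.58 to 0.70 for GRHL1, 0.45 to 0.62 for OVOL2 and -0.76 to -0.63 for ZNF750. The number of factors that rose was 6 throughout, or 7 without siDNp63 replicate 1.

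The numbers over all genes moved more. Scaling by library size alone gave 4117 lower genes (2626 with TMM). With limma, 1678 genes were higher on log2(TPM + 0.1) and 1668 on log2(TPM + 1), which also left 148 higher and 113 lower past a log2 fold change of 1. An adjusted p under 0.005 left 1767 higher and 1137 lower genes, and 170 lower past the fold. The cofactor WWP1 turned to -0.01 on both TPM scales, and KRT10 to -0.02 with the effective length offset and -0.07 on both TPM scales. KRT10 averaged 2322 normalized counts in siDNp63 cells and 1579 in siCTRL cells, but 61.0 and 64.5 TPM. Why WWP1 and KRT10 turned was not tested. Same-numbered libraries did not deviate together (correlations of -0.00, 0.02 and 0.02), so the replicate numbers were not taken as pairs. With a replicate block, 6 factors rose and 1 fell, 3 past a log2 fold change of 1, and over all genes 2777 rose and 2175 fell. Of the 9 factors, PRDM1 in siCTRL cells has the fewest counts, which limits the precision of its fold change.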
